A study of Mus musculus with 35 samples.

Results

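Control skin taken 2 weeks after irradiation was compared with skin of sham mice across all measured genes. The members were chosen by their labels alone, 4 libraries of week 2 control skin and 3 sham libraries, 7 of the 35 skin libraries of the series. All animals were females of the inbred strain C57BL/6J, aged 10 weeks at the start. The sham mice had no radiation. In the other mice left flank skin received 25 Gy, delivered in 420 seconds at 3.6 Gy per min, and was then shaved. The series has 19 mice in 5 groups, and 16 radiated and 16 control libraries, 4 of each at weeks 1, 2, 3 and 4. Control skin carries no radiation label, but the labels do not say where on the body it was taken, whether it was shaved, or at what time of day or in which run any sample was handled. Sham samples carry no week label. Their time and age at collection are therefore not known and may differ from those of week 2 control skin. Since 19 mice gave 35 samples, control and radiated libraries that share a week and a number were treated as 1 mouse, which the labels do not state. On that reading the mice that gave control skin had themselves been irradiated on the flank. No label says more on how the replicates were taken, so p-values measure the spread between these samples.

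Skin RNA reflects several cycling programs. In mice, hair follicles pass in waves between growth, when matrix cells divide and fill the hair shaft with keratins and keratin-associated proteins, and rest, when those genes are silent. Skin cells also run a circadian clock, in which CLOCK, NPAS2 and BMAL1 drive the Per, Cry and Nr1d repressors and the output factors Dbp and Tef, so that transcripts of the activators and of these targets peak at different hours. Beneath the dermis lies the panniculus carnosus, a sheet of skeletal muscle that a full-depth biopsy can include, with fat above it.

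Levels are given as CPM, counts scaled to a library of 1000000 with trimmed-mean (TMM) factors, and each difference is a log2 fold change, control minus sham, from edgeR's quasi-likelihood test with Benjamini-Hochberg adjustment over all tested genes. The 7 libraries held between 17362725 and 28487795 counts. No pair within sham or within control skin was identical or close to sampling noise, and pairs across the groups were not checked. On the first principal component, which held 56.7% of the variance, sham libraries 2 and 3 lay at -63.9 and -73.7 and control libraries 2, 3 and 4 between 46.3 and 55.5. Sham library 1, at -13.3, and control library 1, at -1.72, lay between those sets. Where a gene named below as not passing was called without control library 1 or sham library 1, its value without that library stands beside it. For Sbk3, Pdzrn4, Fos, Jun, Egr1, Myh7, Tnnc1 and Tnni1 no such value against sham is given, whether called or not. As a check of the tissue, 26 epidermal differentiation genes summed to between 18748 and 50555 CPM in every library of the 7.

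In week 2 control skin, clock output genes, muscle genes and some immediate early and adipocyte genes were higher than in sham skin, and genes of the growing hair shaft were far lower. Of 17855 genes tested, 255 differed at an edgeR adjusted p under 0.05, which is 1.43%. Of these, 168 were higher in control skin, or 0.941% of the genes tested, and 87 were lower, or 0.487%. The unadjusted p was under 0.05 for 3745 genes, or 21%. Every one of the 255 genes had no overlap between the groups, a condition that 3316 genes, or 18.6% of all tested, met. Scaling to total counts gave 126 higher and 150 lower, with the median of all genes at -0.23 in place of -0.05 on the log2 scale.

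The count of differing genes depended on single libraries. It was 2121 of the 17638 genes tested without control library 1 and 1051 of the 18299 tested without sham library 1. List counts given below for these fits stand against those totals. Leaving out sham library 2 or 3 left 1 and 0 genes (2969 and 2993 at an unadjusted p under 0.05), and leaving out control library 2, 3 or 4 left 5, 6 and 3. In each of those 7 fits all of the 255 genes still tested, 253 to 255 of them, kept their direction and an unadjusted p under 0.05. They were chosen from these same libraries and had no overlap between the groups. Their kept direction was therefore fixed in advance and is a description only. DESeq2 called 1899 of 24646 genes, with all 255 among them, and limma voom 147 of 17855, with 138 of them. On simulated counts of this design DESeq2 called unchanged genes more often than edgeR or limma voom, which bears on each DESeq2 count below.

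**Figure D1:**
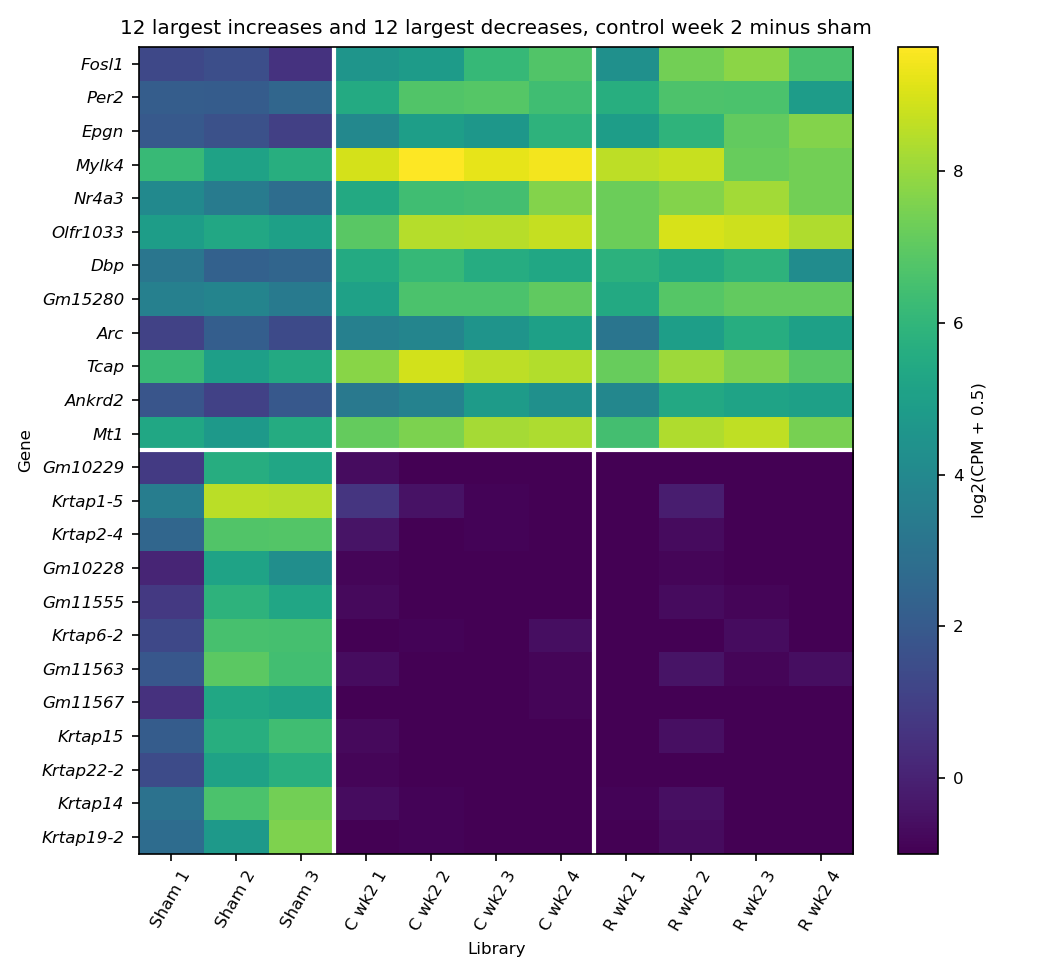
Levels, as log2(CPM + 0.5), of the 12 genes with the largest increases (above the white line) and the 12 with the largest decreases (below it) in week 2 control skin (C wk2) against sham, with week 2 radiated skin (R wk2) beside them. Each column is 1 library; Mylk4 lay between 492 and 798 CPM in the control libraries, and the keratin-associated protein genes were near 0 there and lower in sham library 1 than in sham libraries 2 and 3.

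Clock output genes and repressors were higher in control skin and the activator gene Npas2 was lower. Of the circadian clock list's 21 tested members 9 rose and 1 fell, 10 in all against the 1.43% of all genes called, and the median log2 fold change was 1.18 beside -0.05 for all genes. The count was 16 without control library 1, 13 without sham library 1, 15 with DESeq2 and 8 with limma voom. The mean level of the list, as log2(CPM + 0.5), was 4.88 to 5.12 in sham and 5.57 to 6.36 in control libraries, so the groups did not overlap. The sampling hour was not given in the labels, and its part in the result cannot be told apart from the group.

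Per2, a repressor of the clock loop (GRCm38, chr1:91415982-91459324), was at 3.89, 3.77 and 5.22 CPM in the sham libraries and at 44.8, 108, 115 and 82.4 CPM in control libraries 1 to 4. Every control library lay far above every sham library. The log2 fold change was 4.34 ± 0.36 (SE), 20.2-fold higher, with an edgeR adjusted p of 0.00908. Over the alternative analyses it lay between 4.12 and 4.57 and was called in 15 of 18.

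Dbp, a transcription factor driven directly by the clock activators (chr7:45705088-45710203), was at 8.43, 4.42 and 5.06 CPM in sham and at 45.0, 68.7, 47.3 and 40.4 CPM in control skin. Control libraries were all above the sham libraries, 8.33-fold in the fit (log2 3.06 ± 0.30, edgeR adjusted p = 0.0139). Its relative Tef (chr15:81802421-81826863) had 52.9, 40.2 and 39.8 CPM in sham and 113, 184, 146 and 122 CPM in control skin (log2 1.66 ± 0.20, edgeR adjusted p = 0.0298). Tef levels in control library 1 were the lowest of the 4 and still above all sham libraries.

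Usp2, a deubiquitinase that acts on clock proteins, was at 72.2, 86.1 and 94.3 CPM in sham, at 200.5 CPM in control library 1 and at 366, 366 and 379 CPM in the others (log2 1.94 ± 0.24, edgeR adjusted p = 0.0298). Per3, a further period gene, was at 28.0, 19.3 and 27.8 CPM in sham and at 56.5, 67.7, 60.6 and 62.3 CPM in control skin (log2 1.29 ± 0.17, edgeR adjusted p = 0.0353). Its control values spread little and did not reach the sham values. Nr1d2, a nuclear receptor that represses Bmal1, was at 98.0, 62.5 and 49.9 CPM in sham and at 162, 329, 252 and 257 CPM in control skin (log2 1.82 ± 0.29, edgeR adjusted p = 0.0411). The repressors Cry1 (log2 1.55), Cry2 (1.65) and Bhlhe40 (1.45) also rose, with edgeR adjusted p-values of 0.0487, 0.0487 and 0.037. These 3 and Nr1d2 are called members outside the 6 that the naming rule took.

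Of the activator genes Npas2 was called lower. Npas2, a partner of BMAL1, was at 19.1, 12.7 and 11.6 CPM in sham and at 4.37, 3.74, 3.01 and 4.22 CPM in control skin, and it fell by 1.93 ± 0.25 on the log2 scale (edgeR adjusted p = 0.0304). Arntl, which encodes BMAL1, was at 45.3, 45.0 and 31.2 CPM in sham and 15.3, 19.3, 26.5 and 36.2 CPM in control skin. Its groups overlapped through control library 4, and the log2 value of -0.75 ± 0.28 did not pass (edgeR adjusted p = 0.175). Per1 and Nr1d1 did not pass either, at log2 0.87 and 1.12 (edgeR adjusted p = 0.137 and 0.0967). Both were called without control library 1, at log2 1.11 and 1.26 (edgeR adjusted p = 0.00954 and 0.0415), and Nr1d1 also without sham library 1 (0.0498).

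**Figure D2:**
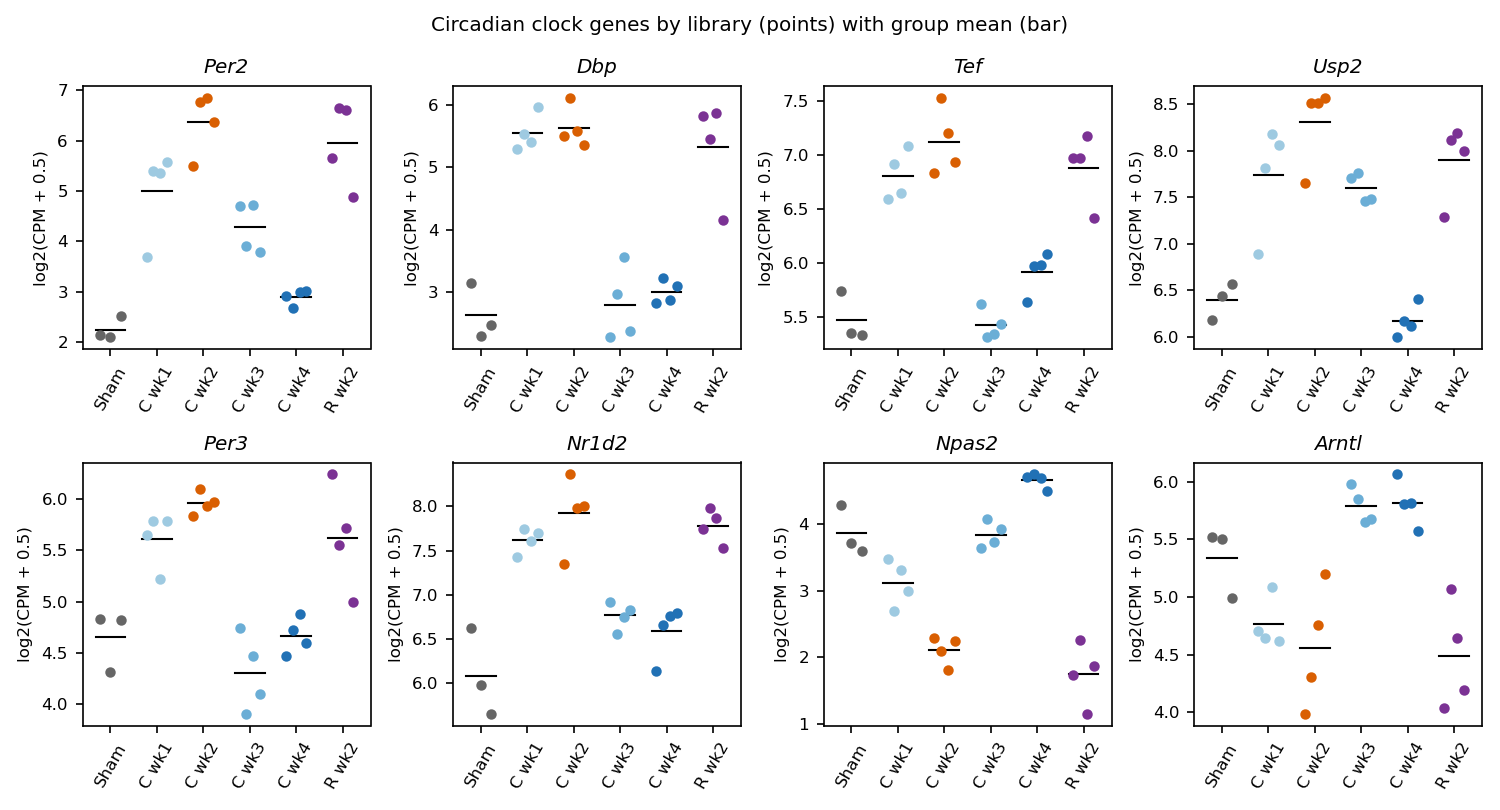
Levels of 8 clock genes, as log2(CPM + 0.5), in sham skin, control skin of weeks 1 to 4 (C wk1 to C wk4) and radiated skin of week 2 (R wk2). Points are libraries and bars are group means; Dbp and Tef are high at weeks 1 and 2 and low in sham and at weeks 3 and 4, and Npas2 is lowest in the week 2 groups.

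In radiated skin of the same week Per2 was at 50.2, 100.2, 97.1 and 28.8 CPM in the radiated libraries, and Dbp at 56.4, 43.5, 58.2 and 17.4 CPM. In a fit without a replicate block, radiated minus control was -0.35 ± 0.41 for Per2 and -0.21 ± 0.34 for Dbp on the log2 scale. Neither passed there (edgeR adjusted p = 0.744 and 0.83). That fit leaves out the pairing by mouse and called 1 gene, against 701 with replicate number as a block, so it does not show that the levels were alike. Against sham, which both comparisons share, radiated skin had log2 4.00 for Per2 and 2.88 for Dbp.

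Promoter sequence is shown for the called clock genes whose 250 bases before the transcription start hold a known clock element, since several moved together. Of the 10 called genes 8 have a window in the RefSeq table (GRCm38.p6), with 9 windows, and Per2 and Bhlhe40 have none. The palindromic E-box CACGTG, bound by BMAL1 complexes, was found in 2 genes, Tef and Cry1, and in 6.02% of all 32851 windows. The D-box TTATGTAA, bound by factors of the Dbp and Tef family, was found in Per3 and in 0.819% of windows. Both strands were searched and the motifs do not overlap each other. Capitals mark the motif and the sequences run 5′ to 3′ on the gene's strand.
Cry1 (chr10:85185055-85185304, minus strand): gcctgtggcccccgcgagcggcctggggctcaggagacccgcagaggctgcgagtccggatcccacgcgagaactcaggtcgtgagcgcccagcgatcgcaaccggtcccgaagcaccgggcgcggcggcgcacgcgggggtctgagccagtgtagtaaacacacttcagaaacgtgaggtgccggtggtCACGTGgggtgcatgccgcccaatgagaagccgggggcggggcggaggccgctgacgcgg
Per3 (chr4:151044666-151044915, minus strand): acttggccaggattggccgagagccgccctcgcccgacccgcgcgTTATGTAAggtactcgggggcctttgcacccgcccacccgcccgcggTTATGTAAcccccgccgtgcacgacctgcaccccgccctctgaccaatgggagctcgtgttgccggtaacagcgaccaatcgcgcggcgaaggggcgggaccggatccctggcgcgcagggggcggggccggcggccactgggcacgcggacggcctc
Tef, upstream start (chr15:81802423-81802672, plus strand): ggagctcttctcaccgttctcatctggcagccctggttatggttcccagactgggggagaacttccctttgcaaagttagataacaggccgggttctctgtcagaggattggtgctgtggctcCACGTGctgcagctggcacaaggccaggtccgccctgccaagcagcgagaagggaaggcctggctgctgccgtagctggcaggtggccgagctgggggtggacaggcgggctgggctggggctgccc
Tef, downstream start (chr15:81811164-81811413, plus strand): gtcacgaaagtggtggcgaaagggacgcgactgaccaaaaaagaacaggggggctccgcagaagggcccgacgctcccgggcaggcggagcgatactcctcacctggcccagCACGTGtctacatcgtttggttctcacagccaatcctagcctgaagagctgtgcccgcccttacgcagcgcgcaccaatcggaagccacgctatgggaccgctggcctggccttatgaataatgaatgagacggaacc
The E-box of Cry1 began 60 bases before the start, and those of Tef 127 and 138 bases before its 2 starts. Per3 held a D-box at 205 and another at 158 bases before the start. A match describes letters only, and its use in these samples was not measured.

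Week 2 control skin was also compared with control skin of weeks 1, 3 and 4, in a fit of 16 libraries without sham. Here 944 of 18192 genes differed (5.19%), 481 higher (2.64%) and 463 lower (2.55%) at week 2. This comparison shares the 4 week 2 control libraries with that against sham. Leaving out control library 4 left 202 genes, and leaving out control library 1 gave 1490. Of the 21 clock genes 10 were higher at week 2 and 2 lower. Per2 was 2.37 higher on the log2 scale (edgeR adjusted p = 0.000871), with group means of 35.5, 19.8 and 7.01 CPM at weeks 1, 3 and 4. Dbp was 1.90 higher (edgeR adjusted p = 0.000148), with 47.2 CPM at week 1 but 6.94 and 7.6 CPM at weeks 3 and 4. Npas2 was 1.88 lower (log2 -1.88, edgeR adjusted p = 3.82e-05), with 8.36, 13.9 and 24.9 CPM in the other weeks. Per2, Dbp and Npas2 stayed called with any 1 of the week 2 control libraries left out. The hour of sampling in each week was not given.

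Genes of skeletal muscle were higher in control skin. Of 30 tested sarcomere and muscle metabolism genes 12 rose and none fell, 40% called by edgeR against 1.43% of all genes, and 26 had an unadjusted p under 0.05, which 21% of all genes had. The list median was 1.59, the values ran from -0.85 to 2.83, and 3 members, Myh7, Tnnc1 and Tnni1, which encode proteins of slow muscle fibres, were negative and did not pass (log2 -0.26, -0.34 and -0.85, edgeR adjusted p = 0.76, 0.737 and 0.468). DESeq2 called 26 of them and limma voom 12. Without control library 1 the count was 24, and 24 too without sham library 1. The summed level of the list was 66016, 21404 and 41167 CPM in sham and 86834, 154010, 100445 and 125514 CPM in control libraries, so that every control library held more than any sham library. In bulk skin, more muscle in the biopsy and more RNA per muscle cell cannot be told apart, and the part of biopsy depth in other results was not tested.

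Mylk4, a myosin light chain kinase family member of striated muscle (chr13:32700834-32783954), was at 70.7, 34.4 and 50.5 CPM in sham and at 492, 798, 604 and 697 CPM in control skin. It was called in 16 of 18 alternatives, with log2 3.63 ± 0.29 (edgeR adjusted p = 0.00908). Radiated skin of week 2 had 382, 428, 144 and 168 CPM. Mylk4 was 2.26 higher than in the other control weeks on the log2 scale (edgeR adjusted p = 0.000941).

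Tcap, a Z-disc protein that caps titin, was at 73.6, 31.8 and 43.5 CPM in sham and at 214, 485, 386 and 345 CPM in control skin (log2 2.83 ± 0.37, edgeR adjusted p = 0.0353). Myh4, the fast IIB myosin heavy chain, was at 6327, 3350 and 4131 CPM in sham and at 14926, 26236, 14387 and 19959 CPM in control skin (log2 2.02 ± 0.33, edgeR adjusted p = 0.0394). Acta1, skeletal alpha-actin, rose by 1.74 ± 0.31 on the log2 scale (edgeR adjusted p = 0.0463), and Ttn, which encodes titin, had log2 1.24 ± 0.44 and did not pass (edgeR adjusted p = 0.156).

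Of 9 tested myogenic and regeneration factors edgeR called Mstn, which rose (11.1% called against 1.43% of all genes; median 1.12). DESeq2 called 6, and edgeR 3 without control library 1 and 3 without sham library 1. Mstn, a secreted inhibitor of muscle growth, was at 61.1, 50.2 and 45.7 CPM in sham and at 269, 520.3, 157 and 325 CPM in control skin (log2 2.59 ± 0.38, edgeR adjusted p = 0.036). Ankrd2, a stretch-responsive ankyrin repeat protein of muscle, was at 2.96, 1.6 and 3.36 CPM in sham and 9.35, 12.5, 28.2 and 19.8 CPM in control skin (log2 2.71 ± 0.45, edgeR adjusted p = 0.0414). Sbk3, a kinase gene named for its rise against other control weeks (log2 2.6, edgeR adjusted p = 0.0046), did not pass against sham (log2 2.76, edgeR adjusted p = 0.0775). Of the 18 fatty acid oxidation and PPAR target genes, Ucp3 and Cpt1b, both strongly expressed in muscle, rose by 2.31 and 1.62, and Acot1, a thioesterase, fell by 1.46 ± 0.15 (edgeR adjusted p = 0.0168). These 3 were 16.7% of the list against 1.43% of all genes, and the count was 5 without sham library 1 and 5 with DESeq2. Acot1 levels were tight, at 37.7, 37.8 and 35.0 CPM in sham and 13.9, 12.4, 15.5 and 12.3 CPM in control skin.

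**Figure D3:**
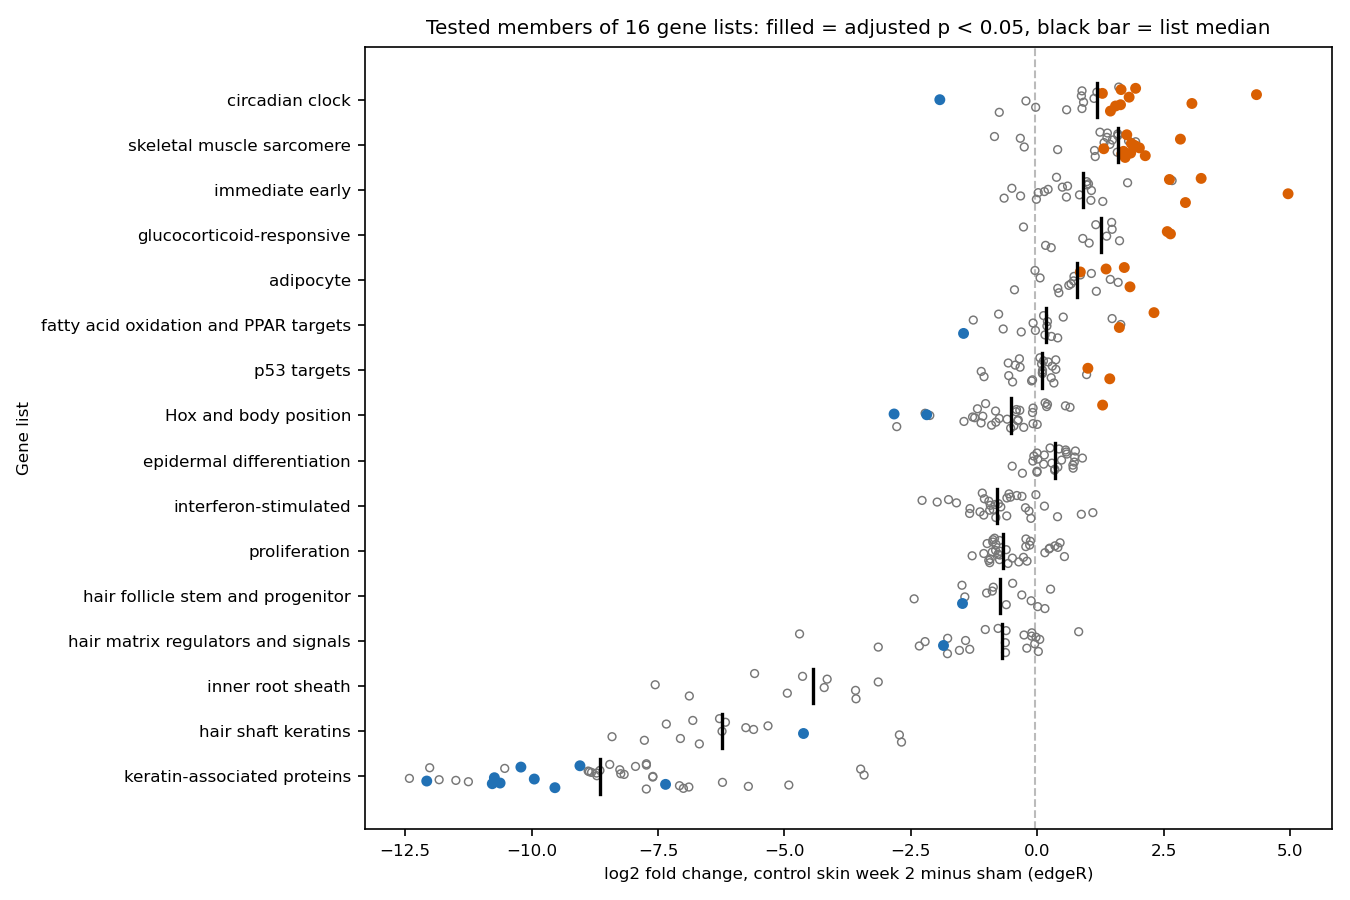
Log2 fold change, control skin of week 2 minus sham, of every tested member of 16 gene lists. Filled points passed at an adjusted p under 0.05, open points did not, black bars are list medians and the dashed line is the median of all genes; the clock and muscle medians are 1.18 and 1.59 and that of the keratin-associated proteins is -8.65 as fitted and -7.82 with the 6 members at the count floor set to their bound.

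The hair shaft genes gave the largest differences, all lower in control skin. Of 58 keratin-associated protein genes, whose products cross-link hair keratin, 39 passed the filter on low counts, 9 fell (0.487% of all genes did) and all 39 had an unadjusted p under 0.05 (21% of all genes had). Since the filter was passed through the sham libraries, the count over members that passed is a description. Their summed level was 122 CPM in sham library 1 and 3492 and 3264 CPM in sham libraries 2 and 3, against 18.9, 7.96, 6.94 and 9.54 CPM in the control libraries. DESeq2 called 38 of them and limma voom 0. EdgeR called 19 without control library 1, 38 without sham library 1 and 39 without both. These genes are short, clustered and near-identical in part, so that counts of single members are uncertain.

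Krtap14 (chr16:88818667-88826145) was at 7.51, 97.0 and 168 CPM in sham and at 0.142, 0.043, 0 and 0 CPM in control skin, which is 4 counts over 4 libraries against 5652 in sham (log2 -10.78 ± 1.46, edgeR adjusted p = 0.0414). Krtap1-5 (chr11:99579976-99581016) was at 10.9, 373 and 349 CPM in sham and at 1.05, 0.215, 0.044 and 0 CPM in control skin (log2 -9.54 ± 1.58, edgeR adjusted p = 0.0499). Both were lowest among sham libraries in sham library 1. Krtap19-2 had 1 count in the control libraries together and 4417 in sham, a ratio of sham to control of 5864 with a 95% counting interval from 1052 to 231651, which covers counting error only. Radiated skin of week 2 was as low, with 2 counts of Krtap19-2 and 4 of Krtap14 in all.

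Hair keratins and inner root sheath genes followed with wide scatter. Of 15 hair shaft keratin genes Krt36 alone fell, 6.67% called against 1.43% of all genes (3.40, 22.6 and 20.5 CPM in sham, 1.38, 0.344, 0.218 and 0.573 CPM in control skin, edgeR adjusted p = 0.0471). The list median was -6.24. DESeq2 called 11 (1899 of 24646 over all genes) and limma voom 0. EdgeR called 12 without control library 1 (2121 of 17638 over all genes) and 9 without sham library 1 (1051 of 18299). None of 10 inner root sheath genes was called by edgeR, although 6 had an unadjusted p under 0.05 (21% of all genes had) and the median was -4.43. DESeq2 called 3 of the 10 and limma voom 0, and edgeR without control library 1 called 8 (2121 of 17638 over all genes). Krt71, a keratin of the inner root sheath, shows the scatter: 499.7, 4968 and 5148 CPM in sham, 742 CPM in control library 1, and 0.172, 0 and 22.3 CPM in control libraries 2, 3 and 4. Tchh, which encodes trichohyalin of the same layer, was at 1304, 19678 and 24266 CPM in sham and at 1167, 13.2, 7.07 and 68.3 CPM in control skin, with a log2 value of -5.59 that did not pass (edgeR adjusted p = 0.194). Without control library 1 Tchh was called, at log2 -9.0 (edgeR adjusted p = 0.0385). The summed level of the list was 2125, 29833 and 34958 CPM in sham and 2667, 15.4, 9.96 and 112 CPM in control skin, so control library 1 lay beside sham library 1 and the other 3 did not.

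**Figure D4:**
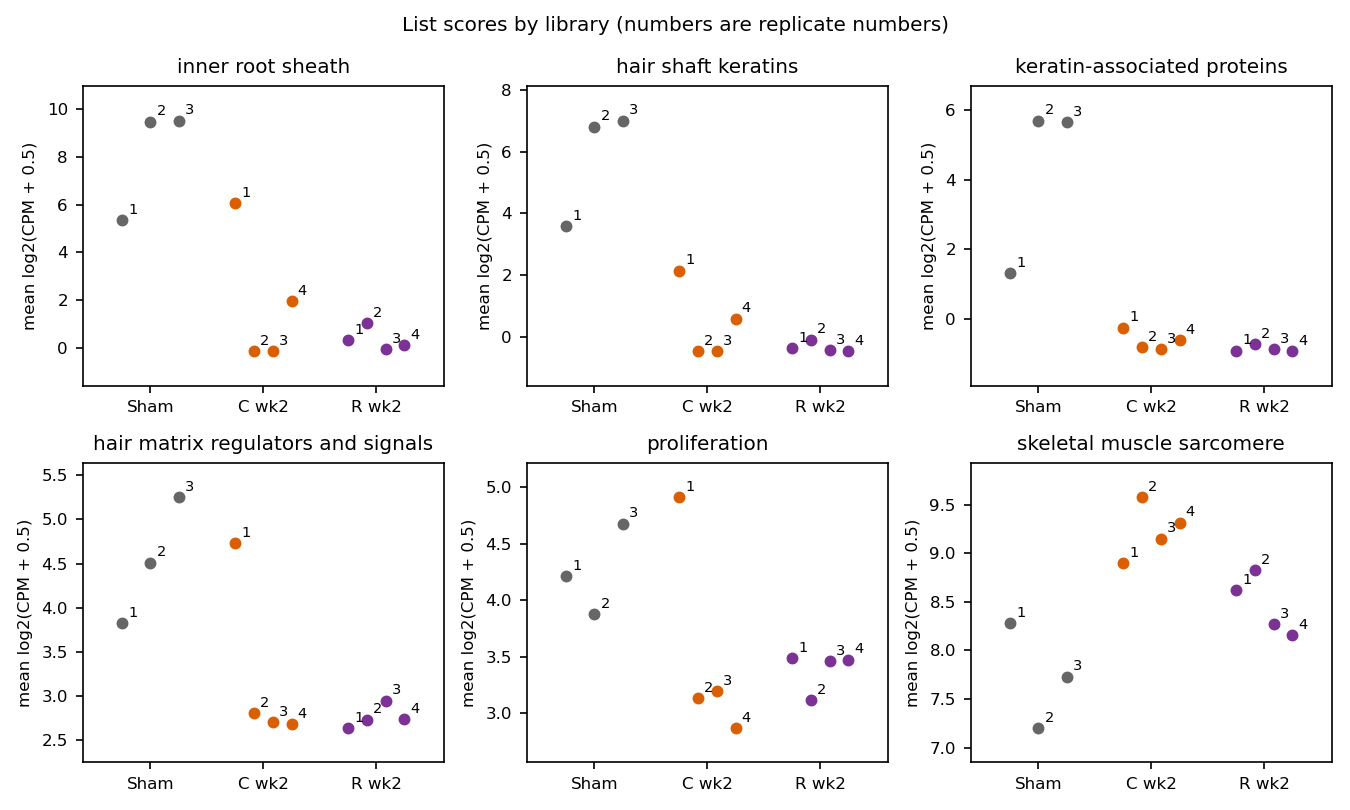
Mean log2(CPM + 0.5) over the tested members of 6 gene lists in each sham, week 2 control (C wk2) and week 2 radiated (R wk2) library, with replicate numbers. Control library 1 lies with the sham libraries for inner root sheath, hair matrix and proliferation, and with the other control libraries for keratin-associated proteins and muscle.

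Of 24 hair matrix regulators Foxq1 fell, and of 14 follicle stem and progenitor genes Foxc1 (4.17% and 7.14% called by edgeR against 1.43% of all genes). Without control library 1 edgeR called 15 and 6 members of these lists, without sham library 1 it called 4 and 2, and DESeq2 called 5 and 4. Shh, Lef1 and a marker of division set control library 1 apart from the other 3. Foxq1, a factor of hair differentiation, fell by 1.86 ± 0.26 on the log2 scale (34.2, 54.3 and 64.4 CPM in sham, 11.8, 19.6, 11.4 and 13.9 CPM in control skin, edgeR adjusted p = 0.0353). Foxc1, a stem cell quiescence factor, fell by 1.5 ± 0.23 (92.1, 173 and 124 CPM in sham, 60.7, 45.0, 39.4 and 40.6 CPM in control skin, edgeR adjusted p = 0.037). For both, every control library was below every sham library. Shh, the matrix signal for follicle growth, was at 9.71, 6.5 and 23.6 CPM in sham and at 45.9 CPM in control library 1, and between 1.12 and 1.30 CPM in the other control libraries. Lef1, a Wnt-responsive factor of the hair matrix, was at 50.1, 54.6 and 204 CPM in sham, 129.8 CPM in control library 1 and 6.58 to 11.2 CPM in the others. Neither passed with all libraries (log2 -0.11 and -1.42, edgeR adjusted p = 0.978 and 0.554), and both were called lower without control library 1, at log2 -3.48 and -3.61 (edgeR adjusted p = 0.00967 and 0.0256). Mki67, a marker of dividing cells, was at 216, 175 and 344 CPM in sham, 402 CPM in control library 1 and 64.7, 57.2 and 35.1 CPM in control libraries 2, 3 and 4. Its log2 value of -0.82 (edgeR adjusted p = 0.646) became -2.23 without control library 1, and was then called (edgeR adjusted p = 0.00972). No gene of the 34 in the proliferation list was called by edgeR (DESeq2 1, limma voom 0), and 2 had an unadjusted p under 0.05, as had 21% of all genes. Without control library 1 edgeR called 19 (2121 of 17638 over all genes), with a list median of -1.5 in place of -0.68.

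Some immediate early genes were higher in control skin. Of 24 tested members 4 rose and none fell, 16.7% called against 1.43% of all genes, with a median of 0.91. DESeq2 called 11, limma voom 1 and edgeR without control library 1 11. Against the other control weeks 1 of the 24, Arc, was higher at week 2 and 4 were lower (Egr1, Egr2, Ier2 and Jun), with a median of -0.46. Of all genes in that comparison 2.64% were higher and 2.55% lower. Fosl1, an AP-1 subunit (chr19:5447547-5455946), had the largest log2 fold change among the 12 largest increases chosen by the naming rule. It was at 1.94, 2.47 and 0.981 CPM in sham and at 22.9, 28.1, 70.1 and 108 CPM in control skin (log2 4.96 ± 0.70, 31.1-fold, edgeR adjusted p = 0.0378). Nr4a3, an orphan nuclear receptor, was at 16.0, 10.3 and 6.51 CPM in sham and at 44.2, 83.5, 87.5 and 204 CPM in control skin (log2 3.24 ± 0.58, edgeR adjusted p = 0.0499). Arc, which encodes a capsid-like cytoskeletal protein, rose 7.62-fold, from 1.63, 4.03 and 2.12 CPM to 11.9, 13.6, 22.2 and 32.5 CPM (edgeR adjusted p = 0.0378). Control library 1 was the lowest of the control libraries for each of these 3 and still above sham.

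Nr4a2 rose as well (log2 2.61, edgeR adjusted p = 0.0499), while Nr4a1 had a similar size and just missed (log2 2.67, edgeR adjusted p = 0.0506). Nr4a1 was called without control library 1 or without sham library 1 (edgeR adjusted p = 0.00878 and 0.0215). Fos, Jun and Egr1, the classic members, gave log2 values of -0.33, -0.50 and -0.02 and did not pass (edgeR adjusted p = 0.855, 0.308 and 0.981). Fosl1 was at 19.6, 164, 219 and 96.6 CPM in week 2 radiated skin. Its group means in control skin were 71.7, 130 and 2.54 CPM at weeks 1, 3 and 4, and the test of week 2 against those weeks, which averages them on the log scale, did not pass (log2 1.01, edgeR adjusted p = 0.262).

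Epgn and the metallothioneins Mt1 and Mt2 rose beside these. Epgn, a ligand of the EGF receptor, was at 3.4, 2.6 and 1.5 CPM in sham and at 15.2, 30.5, 24.4 and 58.8 CPM in control skin (log2 3.66 ± 0.51, edgeR adjusted p = 0.0353). Mt1, a metallothionein that binds zinc and responds to glucocorticoids, was at 39.5, 26.8 and 45.9 CPM in sham and at 138, 184, 298 and 318 CPM in control skin (log2 2.63 ± 0.34, edgeR adjusted p = 0.0353). Of the 12 glucocorticoid-responsive genes Mt1 and Mt2 rose, 16.7% called by edgeR against 1.43% of all genes, and the list median was 1.26. DESeq2 called 7 (1899 of 24646 over all genes). EdgeR called 7 without control library 1 (2121 of 17638 over all genes) and 6 without sham library 1 (1051 of 18299). Fkbp5, a chaperone induced by glucocorticoids, was at 105, 50.1 and 79.4 CPM in sham and 156, 299.6, 322 and 197 CPM in control skin, without overlap, and did not pass (edgeR adjusted p = 0.0516). It was called without control library 1 or without sham library 1 (edgeR adjusted p = 0.0132 and 0.0208). Olfr1033 and Gm15280 were also among the 12 largest increases, at log2 3.16 and 2.93 (edgeR adjusted p = 0.0353 and 0.037), and no function is given for them here.

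Of 18 adipocyte genes 4 rose and none fell, 22.2% called against 1.43% of all genes, with a median of 0.79 (DESeq2 11, limma voom 4, edgeR 7 without control library 1). Slc2a4, the insulin-regulated glucose transporter of fat and muscle, was at 26.4, 12.3 and 18.2 CPM in sham and at 57.4, 74.2, 60.04 and 61.5 CPM in control skin (log2 1.72 ± 0.25, edgeR adjusted p = 0.0353). Car3, a carbonic anhydrase abundant in both tissues, was at 457, 314 and 187 CPM in sham and 994, 1384, 1031 and 1190 CPM in control skin (edgeR adjusted p = 0.0378). Retn and Pnpla2 rose by 1.36 and 0.85, and Adipoq, which encodes the fat hormone adiponectin, had log2 1.17 and did not pass (edgeR adjusted p = 0.0757). Among 22 lipid synthesis genes, Thrsp rose (log2 2.15, edgeR adjusted p = 0.0499, or 0.056 without sham library 1), and Insig1, a brake on sterol synthesis, and Elovl6, a fatty acid elongase, fell by 0.96 and 1.86 (edgeR adjusted p = 0.0366 and 0.0499). These 3 were 13.6% of the list against 1.43% of all genes, and the count was 5 without control library 1, 5 with DESeq2 and 2 with limma voom. The highest Elovl6 level in control skin was 496 CPM, and the lowest in sham was 867 CPM.

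A few body position genes differed between the groups. Hox genes keep the code of position along the trunk in adult skin, with higher numbers further to the rear. Of 35 tested genes of the Hox and body position list 2 fell and 1 rose, 8.57% called against 1.43% of all genes. Of the 29 tested Hox genes 27 had negative values, with a median of -0.75; the 2 positive ones were among the 4 tested genes of the Hoxd cluster, whose median was 0.05. Without control library 1 edgeR called 12 of the 35. Hoxb9 (chr11:96271457-96276595) was at 10.9, 14.7 and 7.38 CPM in sham and at 2.61, 2.80, 2.31 and 1.98 CPM in control skin, and it fell by 2.19 ± 0.28 on the log2 scale (edgeR adjusted p = 0.0304). Hoxc10 (chr15:102966796-102971893) was at 7.90, 7.24 and 6.25 CPM in sham and at 0.712, 1.81, 0.611 and 0.886 CPM in control skin, and it fell by 2.83 ± 0.39 (edgeR adjusted p = 0.0353). For both genes all 4 control libraries lay below all sham libraries.

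Radiated skin of week 2, from the flank, was not low in these genes. It had 8.76, 14.1, 17.3 and 16.8 CPM of Hoxb9 and 12.0, 6.49, 10.1 and 3.81 CPM of Hoxc10. Hoxb9 was the single gene of 17345, or 0.00577%, that differed between radiated and control skin of week 2 in edgeR without a replicate block (log2 2.55 ± 0.26, adjusted p = 0.0336). With replicate number as a block edgeR called 701 genes, 534 higher and 167 lower in radiated skin, and the adjusted p was 0.00466 for Hoxb9 and 0.0178 for Hoxc10. The block rests on 4 pairs whose libraries each correlated best with their own number.

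Control skin of week 1 was as low, with means of 2.31 CPM for Hoxb9 and 1.57 CPM for Hoxc10, and that of weeks 3 and 4 was higher, at 7.27 and 10.8 CPM for Hoxb9 and 8.41 and 10.7 CPM for Hoxc10. Hoxc10 at week 2 was 2.36 below the other control weeks (log2 -2.36, edgeR adjusted p = 0.00352), and Hoxb9 did not pass that test (log2 -1.21, edgeR adjusted p = 0.0568). Tbx15, a T-box factor of dermal patterning, was the 1 body position gene that rose (95.1, 67.8 and 57.0 CPM in sham, 141, 225, 159 and 200.3 CPM in control skin, edgeR adjusted p = 0.0425). Hoxb8 was at 36.8, 35.3 and 41.6 CPM in sham and at 23.7, 6.24, 2.05 and 2.97 CPM in control skin, and did not pass (log2 -2.13 ± 0.80, edgeR adjusted p = 0.193). It was called without control library 1, at log2 -3.34 (edgeR adjusted p = 0.00465). The place on the body and the group cannot be told apart from these labels.

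**Figure D5:**
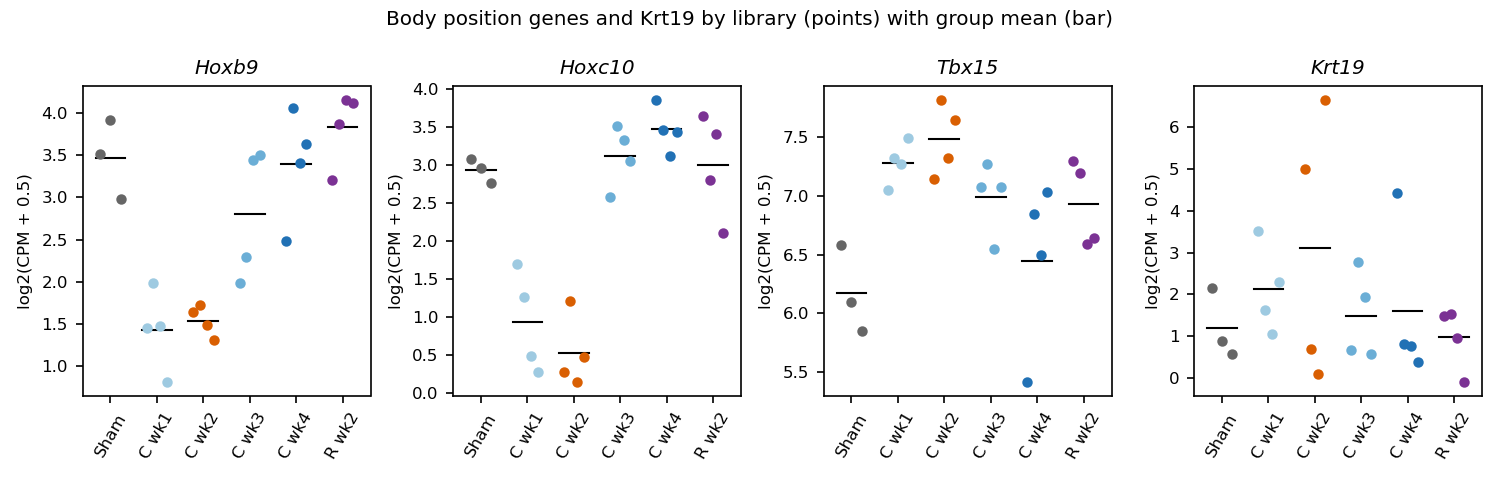
Levels of Hoxb9, Hoxc10, Tbx15 and Krt19, as log2(CPM + 0.5), in sham skin, control skin of weeks 1 to 4 (C wk1 to C wk4) and radiated skin of week 2 (R wk2). Points are libraries and bars group means; the 2 Hox genes are low in control skin of weeks 1 and 2, and Krt19 is high in 2 of the 4 week 2 control libraries.

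Keratins of simple epithelia were high in single control libraries. Krt19, a keratin of simple epithelia and ducts, was at 3.93, 1.34 and 0.981 CPM in sham and at 31.5, 1.12, 0.568 and 100.2 CPM in control libraries 1 to 4. Krt8, a partner keratin of simple epithelia, was at 8.50 and 43.1 CPM in control libraries 1 and 4 and at most 1.19 CPM in the other 5. Krt18 followed, with 8.12 and 38.9 CPM in those libraries. Dmbt1, a secreted mucosal scavenger receptor, led the genes higher at week 2 than in other control weeks (log2 8.12, edgeR adjusted p = 0.0395), on 144 CPM in control library 4 and 12.0 CPM in control library 1, with 0 in control libraries 2 and 3. Without control library 4 its value was log2 4.82 and did not pass (edgeR adjusted p = 0.262). None of 11 tested mammary epithelium markers was called against sham by edgeR, DESeq2 or limma voom (0 at an unadjusted p under 0.05), and edgeR without sham library 1 called 1. Their summed level was 147 to 252 CPM in sham and 243, 165, 173 and 662 CPM in control libraries 1 to 4, and its part in the other differences was not tested.

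Most other lists had few or no called genes. Of 25 p53 target genes, a pathway that radiation activates, Ccng1 and Phlda3 rose (log2 1.43 and 1.00, edgeR adjusted p = 0.0499 and 0.0485). EdgeR called 4 without control library 1, in a fit that called 2121 of 17638 genes. With all libraries the called share was 8% against 1.43% of all genes, and no other member had an unadjusted p under 0.05. Cdkn1a, the p53 target that arrests the cell cycle, was at 317, 478 and 357 CPM in sham and 317, 505, 589.5 and 463 CPM in control skin, and did not pass (log2 0.28, edgeR adjusted p = 0.528). In all, 26 of the 43 lists had no gene called by edgeR. Their 423 tested members included 85 with an unadjusted p under 0.05, a share near the 21% of all genes. DESeq2 called 47 of the 423 (1899 of 24646 over all genes) and limma voom 0 (147 of 17855). EdgeR without control library 1 called 68 (2121 of 17638). The 32 interferon-stimulated genes had a median of -0.79 with 11 at an unadjusted p under 0.05 (DESeq2 3), and the 17 collagens had -0.22 with 2 (DESeq2 0). Macrophage, T cell and epidermal differentiation genes had medians of -0.01, 0.10 and 0.34, with 3 of 21, 1 of 22 and 5 of 26 at an unadjusted p under 0.05. The 16 markers of blood endothelium had a median of 0.73 and 11 at an unadjusted p under 0.05, and 9 had every control library above every sham library, as had 1762 of the 17855 genes tested. None was called by edgeR or limma voom, and DESeq2 called 7 and edgeR without control library 1 5. Of 89 oxidative phosphorylation subunit genes 46 had an unadjusted p under 0.05, with a median of 0.39. Cox6a2, the muscle isoform of a cytochrome c oxidase subunit, rose (log2 1.66, edgeR adjusted p = 0.0499) and no other member was called (DESeq2 17, limma voom 1, edgeR without control library 1 20). The part of vessel or muscle content in these values was not tested.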

How the data were processed

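RNA sequencing of 35 mouse skin samples was used, per the labels. Reads were trimmed with Trim Galore 0.6.7 and quantified with kallisto 0.46.2 against mm10, per the submitters' processing notes. The deposited table holds estimated counts per gene, which the authors had not normalized (29.5% to 32.5% of the values of a library were not whole). Estimated counts were rounded to whole numbers. Genes were tested with edgeR 4.0.16 (R 4.3.3, quasi-likelihood test): filterByExpr, TMM scaling, robust quasi-likelihood fit, control week 2 (4) against sham (3) alone, adjusted p under 0.05. DESeq2 1.42.0 and limma 3.58.1 (voom) were alternatives. Printed CPM values use TMM factors over all 35 libraries, and list scores average log2(CPM + 0.5) over tested members. Depth was 17362725 to 28487795 counts in the 7 libraries, so that 3 counts, taken as the floor, are 0.129 to 0.156 CPM. The libraries of sham and control are different mice and share no pairing.

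Named genes were the 12 largest changes each way among called, non-overlapping genes averaging 5 CPM or more, the 4 largest each way against other control weeks, up to 6 called members and the 2 highest members of each of 43 lists, and 10 fixed genes. Members and lists were chosen with earlier results of these data known. Nr1d2, Cry1, Cry2, Bhlhe40, Per1, Nr1d1, Nr4a1, Fkbp5, Hoxb8, Krt8, Krt18, Krt19, Shh, Lef1, Fos, Jun, Egr1, Egr2, Ier2, Myh7, Tnnc1 and Tnni1 were named after their values were seen. Coordinates are from GENCODE M21 (GRCm38), matched by identifier for 35866 of 36106 genes. Il36a and Il36g were not analysed here. The fits were tested on simulated counts, where DESeq2 called unchanged genes more often than edgeR or limma voom. A permutation of 4 against 3 samples cannot go below a two-sided p of 0.0571, so none was used.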

Additional observations from a re-analysis of the deposited data

Results flagged for a closer look

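Among 127 tests of whether 1 of the 4 week 2 control libraries stood apart (Dixon's test), 17 did. Sham, with 3 libraries, was not tested. The test flags about 1 in 20 independent groups by chance, and the count cannot be set against that rate. For the hair genes given next, counts in a single library fixed the flag in advance. Shh and Lef1 were named after their values were seen and, like Mki67, belong to flagged lists. Control library 1 stood apart in most of the 17. It had Tchh at 1167 CPM against 7.07 to 68.3 CPM in the other 3, Krt71 at 742 CPM against 0 to 22.3, Mki67 at 402 CPM against 35.1 to 64.7, Shh at 45.9 CPM against 1.12 to 1.30 and Lef1 at 129.8 CPM against 6.58 to 11.2. Usp2 was lower there, at 200.5 CPM against 366 to 379. Its list scores were higher for hair matrix regulators (4.73 against 2.68 to 2.81) and proliferation (4.91 against 2.87 to 3.19), and lower for myogenic factors (3.62 against 4.14 to 4.24) and heat shock (7.30 against 7.63 to 7.65).

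In 7 hair genes counts were seen in a single control library, at or under the floor of 3 counts: in control library 1, Krtap22-2 and Gm10228 at 0.047 CPM, Krtap15 and Gm11555 at 0.095 CPM and Gm10229 at 0.142 CPM, in control library 2 Krtap19-2 at 0.043 CPM, and in control library 4 Gm11567 at 0.052 CPM.

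Of the 84 named genes tested, 21 differed between week 2 and the other control weeks (edgeR adjusted p from 3.82e-05 to 0.0487), as did 5.19% of all genes. The naming rule took some of these genes from this same comparison, which shares the week 2 control libraries with that against sham, so the count is a description. On the log2 scale those higher at week 2 were Per2 2.37, Mylk4 2.26, Dbp 1.90, Epgn 1.86, Tcap 1.67, Ucp3 1.45, Gm15280 1.44, Usp2 1.17, Arc 1.13, Tnnt1 1.11, Per3 1.10, Tef 1.10, Dio2 1.01, Nr1d2 0.97 and Cry1 0.81. Those lower were Hoxc10 -2.36, Spon2 -1.99, Npas2 -1.88, Arntl -0.84, Hoxa7 -0.73 and Foxc1 -0.43.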

How the results depend on the processing

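Against sham, the 255 genes became 1899 with DESeq2, 453 with no filter on low counts, 147 with limma voom, 1528 in 1 fit of all 35 libraries and 2240 in 1 fit of the 16 control and 3 sham libraries. Leaving out 1 library at a time gave 0 (without sham library 3; 2993 at an unadjusted p under 0.05) to 2121 (without control library 1). Added after seeing the data, the fit without robust estimation gave 435 and that without both number 1 libraries 2690. With replicate number as a block 1 gene was called; these numbers pair nothing, since the mice differ (mean correlation of same-numbered deviations -0.155, 0 of 3 best with their own number). DESeq2 size factors in edgeR (297) and at least 1 CPM in 3 libraries (316) stayed within 1.5 times. No filter split the calls 332 higher and 121 lower. In all of these settings the 255 genes, where tested, kept their direction, which their lack of overlap in the same libraries largely fixed in advance.

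Against other control weeks, the 944 genes became 1734 with DESeq2 and 186 in 1 fit of all 35 libraries, and 202 (without control library 4) to 1490 (without control library 1) on leaving out 1 library. Total-count scaling split them 272 higher and 668 lower. The replicate block gave 842. Radiated against control at week 2 went from 1 to 701 with the block. Of 1509 single-gene alternatives 1021 were alike, 436 lost the call, 46 gained one and 6 reversed, none in a called gene: Krt18 -1.19 with the block, Krt6a 0.62 without sham library 2 (-0.92 to 0.62 over single libraries left out), and Shh without sham library 3 or control library 2, 3 or 4 (-3.48 to 0.63). Of 774 list medians 57 moved beyond the spread between libraries. The cause of these shifts was not tested. Depth limits genes near 3 counts, as in the hair genes.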

Other observations

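Some called genes outside the gene lists were picked after their values were seen, and no list of their kind was tested. Rrp12, a factor of ribosome export, was at 46.4, 40.6 and 51.0 CPM in sham and at 88.9, 98.2, 81.8 and 134 CPM in control skin (log2 1.11, edgeR adjusted p = 0.0414). Gnl3, nucleostemin of the nucleolus, was at 36.4, 32.0 and 43.4 CPM in sham and 63.0, 79.6, 84.0 and 105 CPM in control skin (log2 1.14, edgeR adjusted p = 0.0418). The nucleolar helicase Ddx21 (log2 0.81), Bysl (0.72), Nol8 (0.75), Tsr1 (0.77) and Eif6 (0.69) rose by less. Each had every control library above every sham library, as had every called gene that rose and 1762 of the 17855 genes tested.

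Gapdh, Hk2, Ldha and Tpi1, enzymes of glycolysis, were likewise picked after their values were seen. Gapdh was at 229.5, 167 and 170.3 CPM in sham and 372, 608, 501 and 550.1 CPM in control skin (log2 1.41, edgeR adjusted p = 0.0353). Hk2, the hexokinase of muscle and fat, was at 193, 128 and 130.2 CPM in sham and 354, 373, 350.3 and 629 CPM in control skin (log2 1.49, edgeR adjusted p = 0.0425). Ldha and Tpi1 rose by 1.21 and 1.16.

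Of the 4 genes lowest at week 2 against other control weeks, Pdzrn4 (log2 -2.37) and Spon2 (-1.99), a secreted matrix protein, are not in the clock or Hox lists. Spon2 was at 12.1, 12.6 and 6.20 CPM in sham and at 3.37, 1.94, 1.92 and 4.22 CPM in control skin (log2 -1.87 against sham, edgeR adjusted p = 0.0499). Pdzrn4 did not pass against sham (log2 -2.13, edgeR adjusted p = 0.0516).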
